A study of Mus musculus with 36 samples.

Results

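The nuclear-encoded subunits of the oxidative phosphorylation system were examined in epididymal white adipose tissue (eWAT) of 36 male C57BL/6 mice. Genes were taken by symbol: the *Nduf* genes of the a, b, c, s and v series (complex I) and *Sdha* to *Sdhd* (complex II). The *Uqcr* genes (complex III) and the *Atp5* genes (complex V) were also taken. For complex IV, symbols from *Cox4* to *Cox8* with an a, b or c suffix were taken, and no *Cox4* gene matched. Of 24750 genes in the table, 84 symbols matched, and 4 were left out (*Cox8b*, *Cox7a1*, the processed pseudogene *Ndufb4c*, and *Ndufb1-ps*, annotated as a long non-coding RNA at a bidirectional promoter). The remaining 80 protein-coding genes comprised 37 of complex I, 4 of complex II, 8 of complex III, 14 of complex IV and 17 of complex V. *Ndufa4* was placed in complex I by its symbol, although the protein is known as a subunit of complex IV.

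The mice were wild-type (WT) or CCL19-KI, a homozygous line in which murine *Ccl19*, a chemokine gene, was knocked into the *Adipoq* locus so that adipocytes express it. Both genotypes were fed a normal diet (ND), a 40% high-fat diet (HFD) or a 60% HFD from 6 weeks of age. In 6 of the groups the mice received a ligature around a molar at 14 weeks of age to induce periodontitis, the other 6 groups received none, and eWAT was collected at 16 weeks, after 10 weeks of feeding. The 3 diets, both genotypes and both ligature states gave 12 groups of 3 libraries. WT and CCL19-KI mice were bred separately, each from matings within the line, so they were not littermates, and lymph nodes were removed from the tissue before extraction.

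Oxidative phosphorylation is the last stage of mitochondrial respiration. Complexes I and II pass electrons from NADH and succinate to ubiquinone, complexes III and IV pass them on to oxygen, and complex V, the ATP synthase, makes ATP from the proton gradient that complexes I, III and IV build. Most subunits are nuclear genes, a few core subunits are encoded by mitochondrial DNA, and in white fat the system serves lipid handling and is known to be less abundant than in brown fat.

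Promoters of these genes are known for a few recurring elements, of which the sites of NRF1 and YY1 are shown here because each matched at least 5 member promoters, in a share several times that of coding promoters. RefSeq promoters on GRCm38.p6 (250 bases before to 50 bases after the start) were found for 66 of the 80 genes. The NRF1 letters, the palindrome of 10 bases in capitals in the first set of windows, occurred in 5 of 66 promoters (7.58%) and in 257 of 17491 promoters of coding genes (1.47%). The YY1 letters AAGATGGCG, searched on both strands, occurred in 7 of 66 (10.6%) and in 374 of 17491 (2.14%). The capitals mark the match, each run is written 5′ to 3′ on the strand of the gene, and the match is a description of the letters and no measurement of binding. The NRF1 windows were
*Atp5g2*, chr15:102671070-102671099, minus strand: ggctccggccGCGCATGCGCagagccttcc
*Atp5k*, chr5:108434430-108434459, minus strand: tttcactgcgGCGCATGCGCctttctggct
*Cox6a1*, chr5:115349101-115349130, minus strand: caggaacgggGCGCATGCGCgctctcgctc
*Ndufa11*, chr17:56717692-56717721, plus strand: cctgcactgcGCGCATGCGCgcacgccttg
*Uqcrc1*, chr9:108936668-108936697, plus strand: actccgctctGCGCATGCGCagcgcggctc

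The YY1 match began 23 to 36 bases after the start site in 6 of the 7 genes.
*Atp5j2*, chr5:145191499-145191528, minus strand: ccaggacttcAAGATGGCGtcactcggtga
*Ndufa9*, chr6:126849096-126849125, minus strand: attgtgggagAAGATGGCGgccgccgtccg
*Ndufc1*, chr3:51408914-51408943, minus strand: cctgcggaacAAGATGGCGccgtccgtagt
*Ndufs4*, chr13:114388045-114388074, minus strand: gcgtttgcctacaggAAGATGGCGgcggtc
*Ndufs6*, chr13:73328433-73328462, minus strand: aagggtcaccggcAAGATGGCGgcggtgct
*Ndufs7*, chr10:80249463-80249492, plus strand: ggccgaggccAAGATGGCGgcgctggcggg
In *Atp5j* the match lay upstream, starting at position -88 from the start site, in chr16:84835045-84835074, minus strand: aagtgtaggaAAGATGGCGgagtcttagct

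The ESRRA letters TCAAGGTCA also had a share several times that of coding promoters (3.03% against 0.377%), but it rested on 2 member promoters. The GABPA letters CCGGAAGT were found in 5 (7.58% against 5.69%), the hypoxia response letters TACGTG in 1 (1.52% against 3.74%), CCAAT in 29 (43.9% against 42.3%) and TATAAA in 6 (9.09% against 14.8%). Member promoters held a median of 19 CG dinucleotides and coding promoters 13.

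The libraries held 11962228 to 21581595 reads in genes, and 1 read was worth 0.0472 to 0.0834 normalized CPM, the depth-scaled unit of the table. A gene was tested where it reached 1 normalized CPM in at least 3 libraries, which left 17852 genes and 77 members. All subunits of complexes I, II, III and V passed, and *Cox6a2*, *Cox7b2* and *Cox8c* of complex IV did not. Differences are given on the scale of log2(normalized CPM + 1), from one limma fit of the 12 group means, and a gene is said to be called where its Benjamini-Hochberg adjusted p over all tested genes was below 0.05. Shares of all tested genes are those of this fit. Counts of members under other settings are given without the share of all genes called in the same setting.

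Several libraries stood apart in ways that touch the results. *Ccl19* was 0.687 to 34.6 normalized CPM in CCL19-KI libraries (median 16.2) and 0.507 to 19.2 in WT libraries (median 1.25). It went against the label in 2 libraries, with 19.2 in the library labelled ND WT without ligature, replicate 2, and 0.687 in the library labelled 60% HFD CCL19-KI without ligature, replicate 3. All 10 adipocyte markers were present in every group, with a summed level of 5812 to 30698 normalized CPM per library. The 12 hepatocyte markers, which include the plasma protein genes *Alb* and *Apoa1*, summed to 134 to 43787 normalized CPM. The 10 epididymis markers summed to a median of 2.34 normalized CPM. They reached 12723 in unligatured 60% HFD CCL19-KI mice and 6743 in unligatured ND WT mice. Within ligatured ND CCL19-KI mice the sum reached 2745, and within unligatured 40% HFD WT mice 1914. A mean log2 level of epididymis or germ cell markers above 5 was found in 3 libraries. These were unligatured ND WT replicate 2 and unligatured 60% HFD CCL19-KI replicates 1 and 2. Each library of that CCL19-KI group thus had such a level or had *Ccl19* against its label. In bulk tissue, fewer cells of a type and less RNA per cell cannot be told apart.

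The subunits differed in abundance by more than 2 orders of magnitude. Per kilobase of exon, the highest median levels over the 36 libraries were those of *Cox8a* (308 normalized CPM per kb), *Cox6b1* (247), *Atp5b*, the catalytic β subunit of the ATP synthase (246), *Atp5a1*, its α subunit (208), and *Cox6a1* (154). The lowest among tested members were *Atp5g2* (0.952), *Ndufa4l2* (1.44) and *Cox6b2* (1.48). By complex, the median member stood at 35.5 normalized CPM per kb in complex I, 51.5 in complex II, 78.4 in complex III, 89.3 in complex IV and 43.8 in complex V. The order of the complexes was not tested, since members are not replicates.

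Paralogues were used unequally. The 3 genes for subunit c, which forms the rotor ring of the ATP synthase and yields the same mature protein from each, had medians of 162 normalized CPM for *Atp5g3*, 47.1 for *Atp5g1* and 1.59 for *Atp5g2*. *Atp5g2* shared 40.2% of its 31-base words with other genes, mostly with the entry *Gm10175*, so its level is uncertain. *Cox6a1* and *Cox8a*, the broadly expressed forms, were among the most abundant genes, whereas the muscle form *Cox6a2* lay between 0 and 0.816 normalized CPM in all libraries.

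Members also differed in how steady they were. The standard deviation over the 36 libraries on the log2 scale was 0.63 for *Atp5g1* and 0.58 for *Cox6b2*, and 0.17 for *Ndufa3*, *Ndufa7* and *Ndufb5*. The mean level of all 77 members varied from 5.75 to 6.72 between libraries, with a pooled standard deviation within groups of 0.20. The lowest group means were those of ND CCL19-KI with ligature (5.93 ± 0.23, SD, n = 3) and 60% HFD CCL19-KI without ligature (5.93 ± 0.13), and the highest those of 40% HFD WT without ligature (6.33 ± 0.42) and 60% HFD WT without ligature (6.30 ± 0.22).

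**Figure D1:**
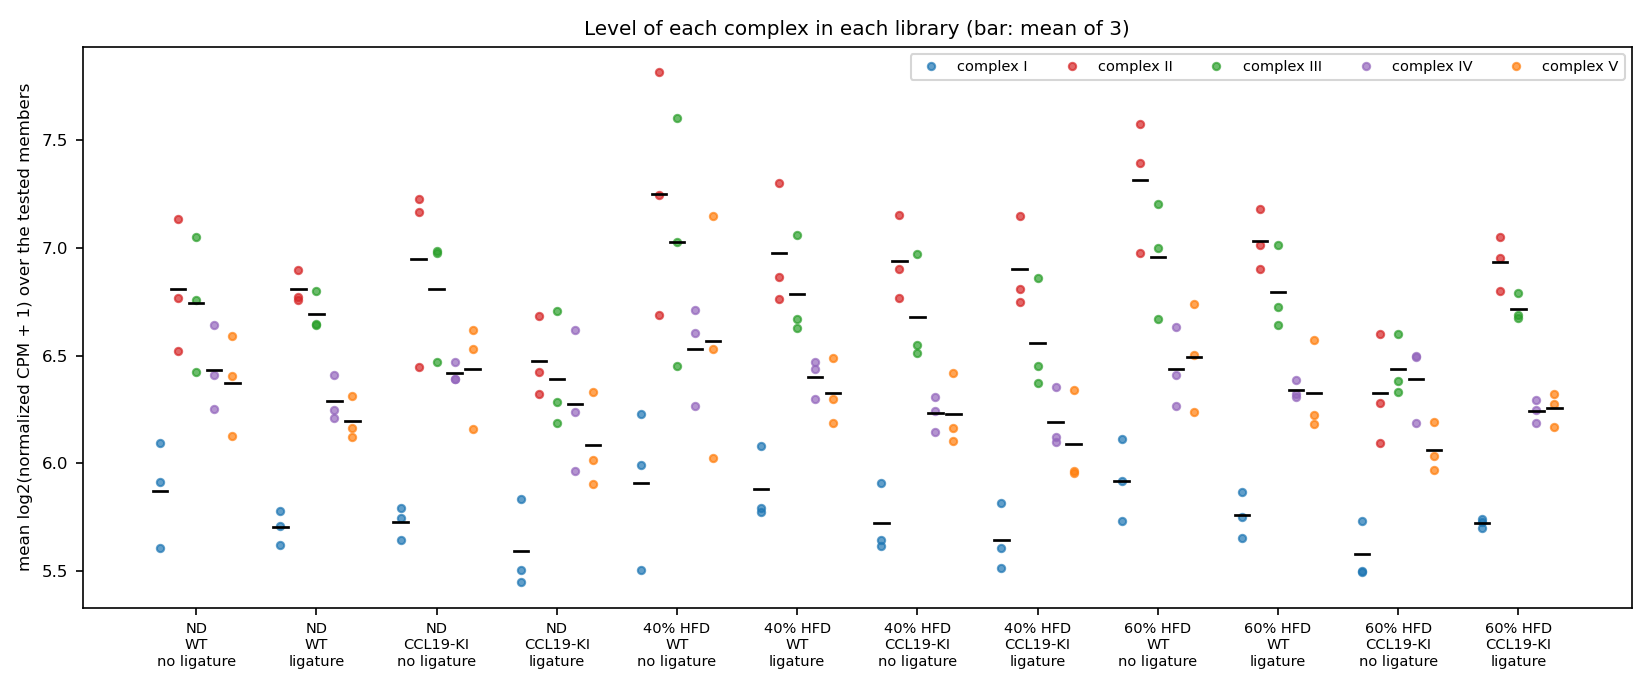
Mean log2(normalized CPM + 1) over the tested members of each complex in each of the 36 libraries, by group. Points are libraries and bars are means of 3. Complex II stood at 6.33 in unligatured 60% HFD CCL19-KI mice beside 7.31 in the WT mice of that setting, and the 3 libraries of several groups spread as widely as neighbouring groups differ.

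The comparison of CCL19-KI with WT, averaged over the 6 settings of diet and ligature, asked whether expression of *Ccl19* by adipocytes moved these genes. *Ndufb8* and *Ndufc2*, accessory subunits of the membrane arm of complex I, were lower in CCL19-KI mice, and *Ndufa4l2*, a paralogue of *Ndufa4* known to be induced by hypoxia, was higher. These were the 3 called of 77 members, and 0.459% of all tested genes (82) were called. The direction was shared widely without reaching the threshold: 75 of 77 members were below 0, with a median of -0.19, while 54.3% of all tested genes were below 0, with a median of -0.02.

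*Ndufb8* (mm10, chr19:44548572-44555440, minus strand) ranged from 106 to 168 normalized CPM in the 18 CCL19-KI libraries (median 118) and from 111 to 223 in the 18 WT libraries (median 143). The ranges overlapped over most of their width. The averaged log2 difference was -0.29 ± 0.07 (SE, adjusted p = 0.0393). In ND mice without ligature the libraries separated, with 112, 114 and 108 in CCL19-KI against 160, 132 and 223 in WT. There 14.7% of all tested genes had CCL19-KI libraries that all lay below the WT libraries. That WT group includes replicate 2, whose *Ccl19* went against the label.

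*Ndufc2* (chr7:97400003-97407802, plus strand) ranged from 43.8 to 74.3 normalized CPM in CCL19-KI (median 60.3) and from 47.2 to 92.6 in WT (median 71.2). Its averaged log2 difference was -0.28 ± 0.06 (adjusted p = 0.0393). In 40% HFD mice with ligature the values were 66.6, 58.9 and 59.4 against 71.4, 92.6 and 91.0, without overlap, and in 40% HFD mice without ligature they were 61.2, 67.3 and 58.2 against 47.2, 61.7 and 73.2, which overlapped.

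*Ndufa4l2* (chr10:127514967-127517154, plus strand) was a low gene, at 0.884 to 3.69 normalized CPM in CCL19-KI (median 1.90) and 0.451 to 2.10 in WT (median 0.965). Its averaged log2 difference was 0.49 ± 0.09 (adjusted p = 0.0103), and it was above 0 in 5 of 6 settings, from 0.52 to 0.78, and at -0.25 in ND mice without ligature. The gene overlaps *Shmt2* on the opposite strand. The libraries were made with a directional kit, but the counting strand is not stated in the sources used here. Reads of the overlapping stretch may thus have been counted for either gene.

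**Figure D2:**
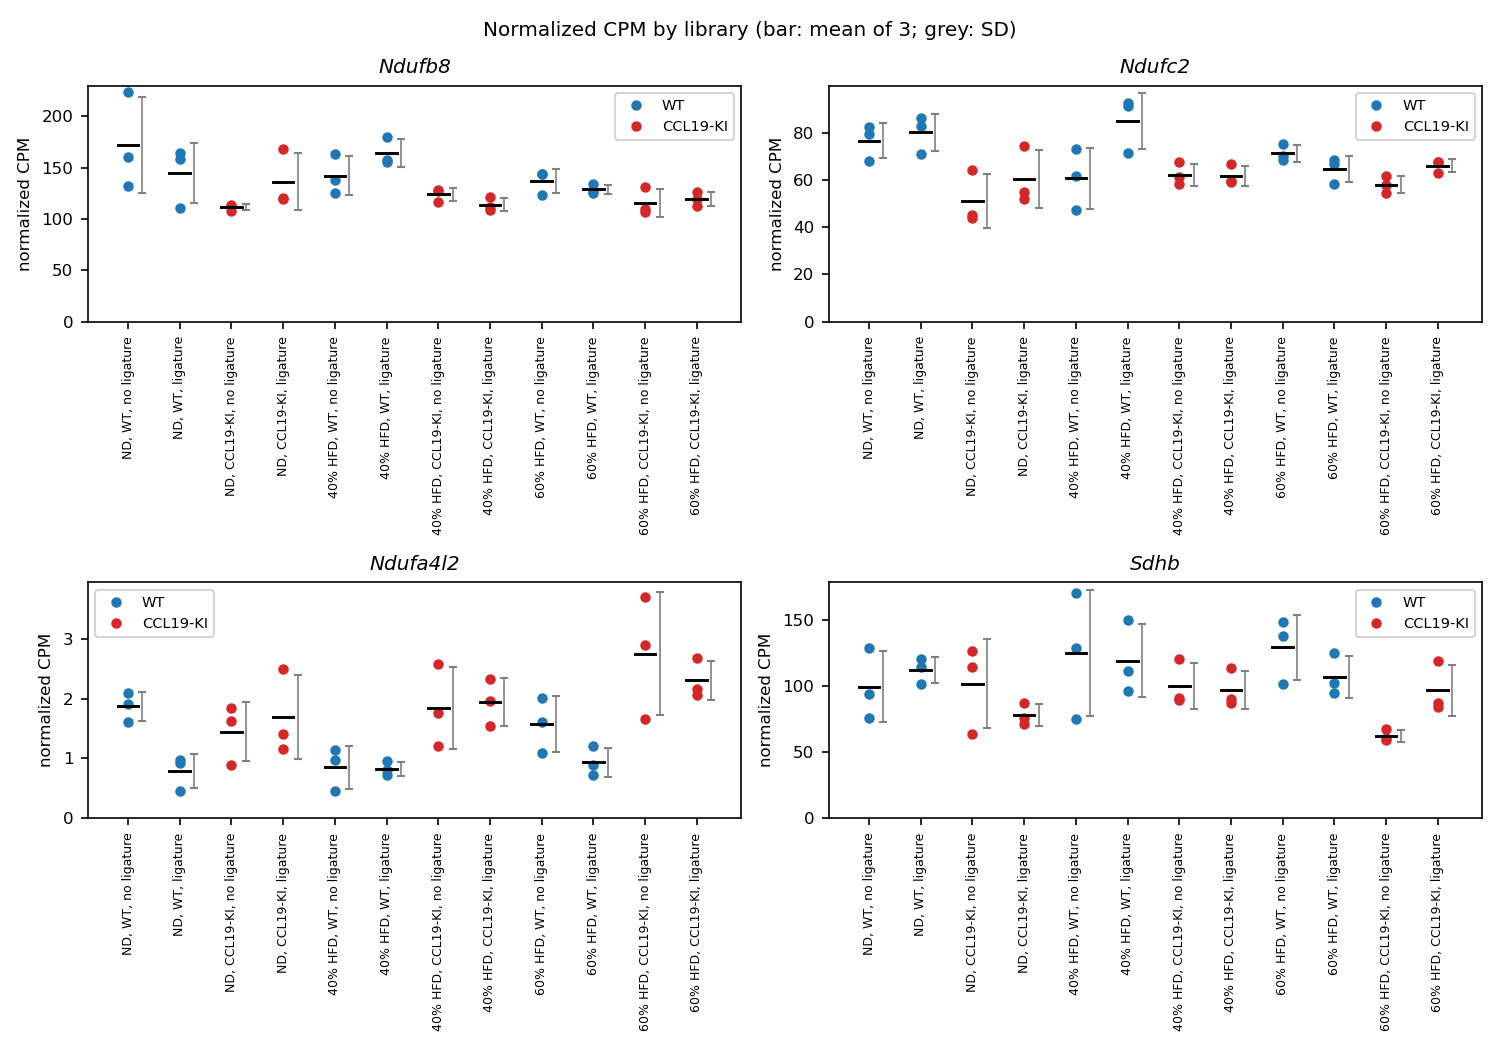
Normalized CPM of *Ndufb8*, *Ndufc2*, *Ndufa4l2* and *Sdhb* in every library of the 12 groups, with the mean of 3 (bar) and the SD (grey). *Ndufb8* was highest in a WT library at 223, *Ndufa4l2* in an unligatured 60% HFD CCL19-KI library at 3.69, and the 3 *Sdhb* values of that CCL19-KI group (58.9 to 67.4) lay below all 18 WT values.

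By complex, the median difference was -0.19 in complex I, -0.27 in complex II, -0.23 in complex III, -0.14 in complex IV and -0.20 in complex V. Without adjustment, 45 members were lower and 1 was higher at p below 0.05, where 9.02% of all genes were lower and 7.9% higher. All 4 subunits of complex II, the succinate dehydrogenase, were among the 45, as were 26 of 37 in complex I and 1 of 11 in complex IV. *Sdhb*, its iron-sulfur subunit, was the lowest member at -0.37 ± 0.10 (adjusted p = 0.0919), followed by *Uqcrq* at -0.32 ± 0.13 and *Uqcrc2*, a core protein of complex III, at -0.30 ± 0.11. None of these 3 passed the adjusted threshold.

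The catalytic and core subunits examined in complexes I, II, III and V stood between -0.37 and -0.19. *Ndufv1*, which holds the NADH site of complex I, was at -0.19 ± 0.11, *Ndufs1* at -0.25 ± 0.09, *Sdha*, the flavoprotein of succinate dehydrogenase, at -0.28 ± 0.10, *Uqcrc1* at -0.25 ± 0.11, and the Rieske protein gene *Uqcrfs1* at -0.26 ± 0.13. *Atp5b* was at -0.27 ± 0.09. In complex IV, whose catalytic subunits are encoded by mitochondrial DNA, the structural subunits *Cox5a* and *Cox5b* were at -0.22 ± 0.12 and -0.15 ± 0.10, with adjusted p from 0.0919 to 0.443 over these subunits with *Sdhb*. Of the subunit c genes, *Atp5g2* was at -0.28 ± 0.11, *Atp5g3* at -0.22 ± 0.12 and *Atp5g1* at -0.01 ± 0.19. Among the paralogues with a broad expression pattern, *Cox7a2* was at -0.22, *Ndufa4* at -0.22, *Cox7b* at -0.17, *Cox8a* at -0.16, *Cox6b1* at -0.14, *Cox6a1* at -0.11 and *Cox7a2l* at -0.06. The testis form *Cox6b2* was at 0.19 ± 0.18.

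Several values moved with this comparison. The 6 smooth muscle markers had a median difference of 0.99 with all 6 above 0, the 10 adipocyte markers -0.33 with all 10 below 0, and the 12 hepatocyte markers -0.45 with all 12 below 0, none called. With the hepatocyte and smooth muscle levels of each library as covariates, the median of the members was -0.12 and 73 of 77 were below 0, with no member called. Quantile normalization gave a median of -0.10 with 70 below 0 and no member called. Without the 2 libraries whose *Ccl19* went against the label, 18 members were lower and 1 higher, with a median of -0.23. The share of all genes called in that fit is not given here. *Ndufa4l2* was called with each library left out in turn, whereas *Ndufb8* and *Ndufc2* were each called in 14 of those 36 fits. With skeletal muscle markers as the covariate no member was called, *Ndufa4l2* included, at a median of -0.19 with 74 of 77 below 0. The mean log2 level of the skeletal muscle markers was 1.57 in CCL19-KI and 1.06 in WT libraries. That of the endothelium markers was 4.84 and 4.43.

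**Figure D3:**
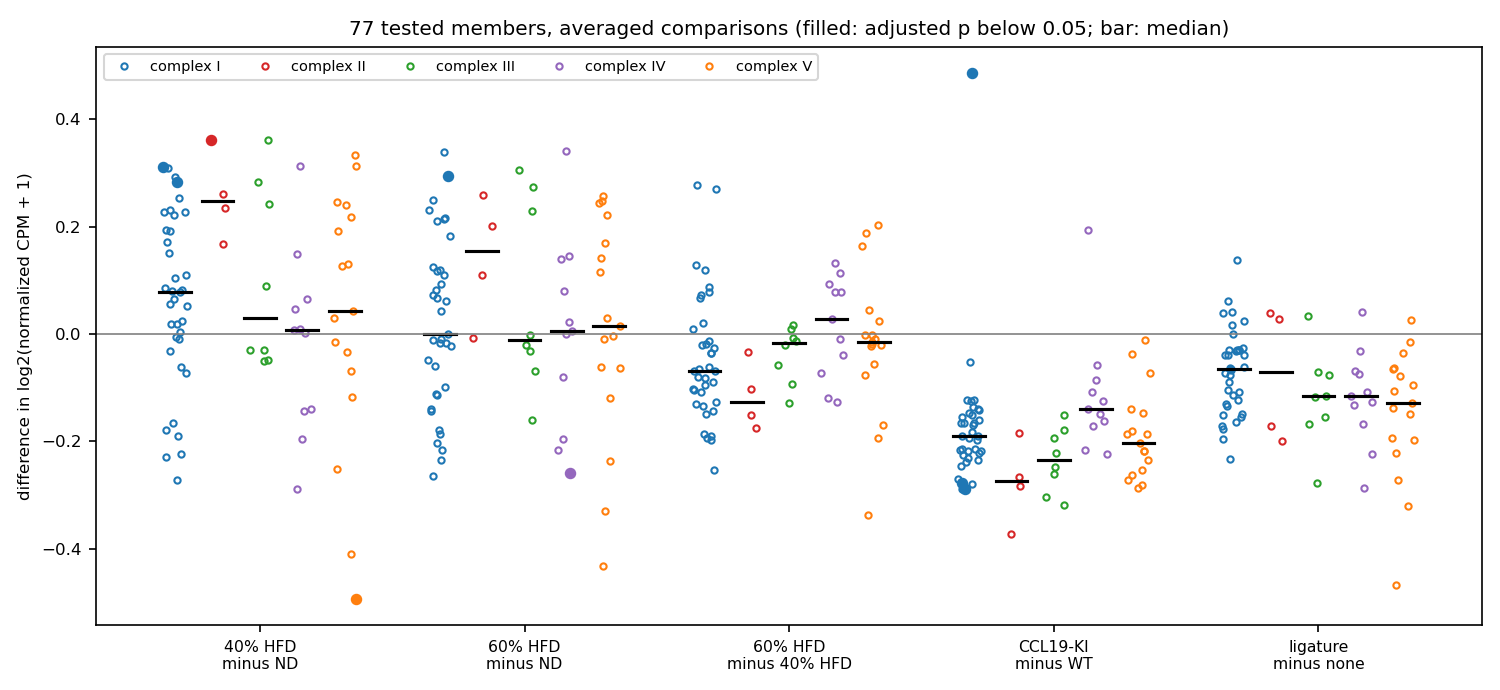
Difference in log2(normalized CPM + 1) of each tested member in the 5 averaged comparisons, grouped by complex. Filled points are called members, open points are the others, and bars are medians. In the genotype comparison 75 of 77 points lie below 0, and in the diet comparisons the points lie on both sides of 0.

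Within the single settings the difference between genotypes was uneven. The median over the members was -0.04 in ND mice without ligature, -0.15 in ND mice with ligature, -0.25 and -0.24 in 40% HFD mice without and with ligature, -0.34 in unligatured 60% HFD mice and -0.06 in ligatured 60% HFD mice. No member was called higher in any of the 6 settings, and members were called lower in 2 of them, 3 in ND mice without ligature and 19 in 60% HFD mice without ligature.

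In 60% HFD mice without ligature, 19 of 77 members (24.7%) were lower in CCL19-KI, while 8.06% of all tested genes were called lower and 16.8% in either direction. All 4 subunits of complex II were among them, with 9 of 37 in complex I, 1 of 8 in complex III, 5 of 17 in complex V and none of 11 in complex IV. The median was -0.98 in complex II, -0.69 over the 7 core subunits of complex I, -0.53 in complex III, -0.31 in complex V and -0.17 in complex IV.

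*Sdhb* was 58.9, 60.5 and 67.4 normalized CPM in the CCL19-KI libraries and 102, 138 and 149 in the WT libraries. The groups did not overlap, and the log2 difference was -1.03 ± 0.26 (adjusted p = 0.012). *Sdha* was 171, 219 and 298 against 344, 453 and 527, again without overlap, at -0.96 ± 0.24 (adjusted p = 0.0116). *Sdhc* and *Sdhd*, the membrane anchors of the enzyme, were at -0.97 ± 0.22 and -0.99 ± 0.27 (adjusted p = 0.00739 and 0.0169).

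*Ndufs1*, the largest core subunit of complex I, was 51.8, 54.8 and 72.8 normalized CPM in CCL19-KI and 104, 121 and 136 in WT, at -1.01 ± 0.23 (adjusted p = 0.00739). It overlaps *Ino80dos* and *Eef1b2* on the opposite strand. *Ndufv1* was at -0.87 ± 0.26 and *Uqcrfs1* at -1.07 ± 0.33, where the values were 53.1, 61.7 and 105 against 116, 152 and 184. In the ATP synthase, *Atp5g3* was 86.9, 104 and 151 against 214, 250 and 283, at -1.15 ± 0.29 (adjusted p = 0.0126), and *Atp5b* was 640, 723 and 1055 against 1110, 1253 and 1435, at -0.68 ± 0.22 (adjusted p = 0.0386). The groups of each of these genes did not overlap. In each of these 6 genes with printed values, the highest CCL19-KI value was that of the library labelled replicate 3, 1 of the 2 whose *Ccl19* went against the label.

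The structural subunits of complex IV in the same libraries were nearer to 0. *Cox6a1* was at 0.01, *Cox5b* at -0.05, *Cox6b1* at -0.17, *Cox8a* at -0.19 and *Cox7a2* at -0.33, none called, and *Cox5a* was at -0.73, not called. Over the whole list, 34 of 77 members had CCL19-KI libraries that all lay below the WT libraries, where 16.3% of all tested genes did.

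The marker genes differed strongly in this setting. The hepatocyte markers summed to 970 to 1714 normalized CPM in the 3 CCL19-KI libraries and to 10628 to 43787 in the 3 WT libraries, with all 12 present in both groups. The smooth muscle markers summed to 727 to 1511 against 180 to 391, the adipocyte markers to 10327 to 12674 against 15541 to 19342, and the epididymis markers to 364 to 12723 against 0.067 to 0.0834, with 8 of 10 at 0 in every WT library. With the hepatocyte markers as a covariate no member was called and the median was -0.09, and with smooth muscle or epididymis markers as the covariate no member was called and the medians were -0.25 and -0.13. With hepatocyte and smooth muscle markers together the median was 0.14, and 25 of 77 members were below 0. With the adipocyte markers as the covariate 33 members were lower, at a median of -0.49. The share of all genes called in that fit is not given here, so the count does not set the members apart from other genes.

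In a separate fit of the unligatured libraries, where the ligatured groups do not enter the estimate of the spread, 1 member was called. Single libraries also decided the count in the main fit. It ranged from 1 to 25 with each library left out, falling to 1 without WT replicate 3, to 5 without WT replicate 2 and to 5 without CCL19-KI replicate 1. Without the 2 libraries whose *Ccl19* went against the label, 26 members were lower and 1 was higher, and without the 3 libraries high in epididymis or germ cell markers 4 were lower and 1 was higher. The last count rests on 1 CCL19-KI library, replicate 3, whose *Ccl19* went against the label, and the fit assumes that it varies like the other groups. Shares of all genes called in the fits of this paragraph are not given here, so the counts do not set the members apart.

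**Figure D4:**
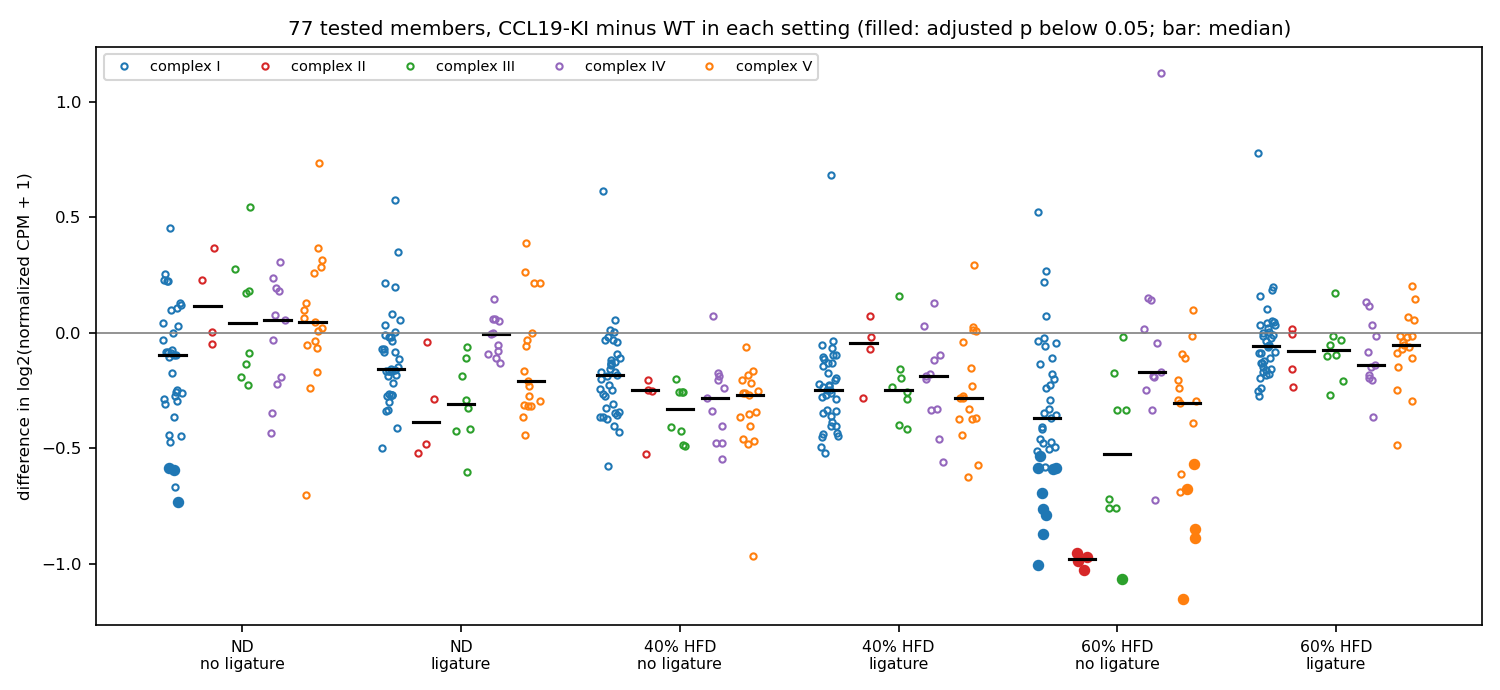
Difference between CCL19-KI and WT in log2(normalized CPM + 1) for each tested member, by complex, in the 6 settings of diet and ligature. Filled points are called members and bars are medians. Complex II lies lowest in unligatured 60% HFD mice, at a median of -0.98, and at -0.08 in ligatured 60% HFD mice.

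In ND mice without ligature, 16.6% of all tested genes were called in either direction and 9.63% were lower in CCL19-KI, and 3 members were lower in CCL19-KI: *Ndufb8* (-0.59 ± 0.16, adjusted p = 0.0165), *Ndufc2* (-0.59 ± 0.15, adjusted p = 0.0131) and *Ndufa11*, an accessory subunit of complex I (-0.73 ± 0.21, adjusted p = 0.02). *Ndufa11* was 29.6, 24.5 and 25.5 normalized CPM in CCL19-KI and 46.7, 41.2 and 46.0 in WT, without overlap. The WT group of this setting was the one with the lowest hepatocyte markers, at 134 to 1541 normalized CPM against 1146 to 32608 in CCL19-KI. The epididymis markers reached 6743 in WT against 563 in CCL19-KI and the smooth muscle markers 2275 against 569. With the marker lists as covariates 1 member was called for hepatocyte, 0 for adipocyte or skeletal muscle, 6 for smooth muscle and 9 for epididymis markers, all of them lower. Without the 2 libraries whose *Ccl19* went against the label, 8 members were called. Shares of all genes called in these other fits are not given here.

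The other 4 settings held no called member. With ligature, 1.03% of all tested genes were called in ND mice, 0.0112% in 40% HFD mice and 0.0112% in 60% HFD mice, and without ligature 0.0056% in 40% HFD mice. At unadjusted p below 0.05, 3, 16, 0 and 8 members were lower in these 4 settings in that order, and 1 was higher in each, *Ndufa4l2*, beside 12.6%, 3.18%, 2.48% and 6.64% of all genes in either direction. By edgeR and DESeq2 none was called in these 4 settings. Members whose CCL19-KI libraries all lay below the WT libraries numbered 11 of 77 in ND mice with ligature (9.53% of all genes), 23 in 40% HFD mice with ligature (5.63%), 2 in 40% HFD mice without ligature (6.74%), 8 in 60% HFD mice with ligature (4.7%) and 7 in ND mice without ligature (14.7%).

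Whether the genotype difference changed with diet was tested directly, averaged over ligatured and unligatured mice. Likewise, genotype by ligature was averaged over the diets, and ligature by diet over the genotypes. Whether the genotype difference within 60% HFD mice changed with the ligature was not tested. Of the 77 members, none was called in the interaction of genotype with 60% HFD (0.476% of all genes were) or with 40% HFD (0% of all genes). At unadjusted p below 0.05, 3 members were higher and 9 lower in the first and 1 higher and 8 lower in the second, beside 22.3% and 11.0% of all genes in either direction, and edgeR and DESeq2 on the recovered reads called 2 and 4 in the first and 0 and 0 in the second. The lowest adjusted p was 0.079 for *Atp5e*, the ε subunit of the ATP synthase, at -0.92 ± 0.27 for 60% HFD. *Atp5e* was 72.9, 96.9 and 56.4 normalized CPM in unligatured 60% HFD CCL19-KI libraries and 114, 143 and 147 in WT. The ligatured 60% HFD groups and the ND groups also entered this interaction, and their values are not printed here. The interaction of genotype with ligature held no called member either (0.0056% of all genes), with 1 at unadjusted p below 0.05 (10.8% of all genes) and 0 by edgeR and by DESeq2. Nor was a member called in the interaction of ligature with 60% HFD (0% of all genes) or with 40% HFD (0.0056%), where 7 were higher and 1 lower, and 1 higher, at unadjusted p below 0.05 (14.3% and 9.56% of all genes), and edgeR and DESeq2 called 0.

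High-fat feeding was compared with ND over the 4 settings of genotype and ligature, 12 libraries against 12, to ask whether the fat content of the diet moved the respiratory chain. The median of the members was 0.01 for 60% HFD and 0.07 for 40% HFD, while 18.6% and 9.21% of all tested genes were called. For 60% HFD 40 of 77 members were above 0, and 48.1% were below 0 beside 47.9% of all tested genes. For 40% HFD 51 of 77 were above 0, and 33.8% were below 0 beside 52.9% of all tested genes. All 4 subunits of complex II were above 0 for 40% HFD, at a median of 0.25, and 1 of them was called. In 60% HFD mice *Ndufa11* was higher and *Cox6c*, a small subunit of complex IV, was lower, so that 2 of 77 members (2.60%) were called. In 40% HFD mice *Sdhc*, *Ndufb6* and *Ndufa9* were higher and *Atp5j2*, a subunit of the membrane part of the ATP synthase, was lower, so that 4 of 77 (5.19%) were called. Both diets were compared with the same ND libraries.

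*Atp5j2* ranged from 43.5 to 130 normalized CPM in 40% HFD mice (median 57.5), from 49.1 to 92.4 in 60% HFD mice (median 68.9) and from 67.0 to 100 in ND mice (median 87.8). Of the 12 libraries of the 40% HFD, 2 WT libraries reached the ND range or lay above it, at 74.9 and 130, and the 60% HFD range overlapped that of ND over most of its width. The log2 difference was -0.49 ± 0.12 for 40% HFD (adjusted p = 0.0133) and -0.33 ± 0.12 for 60% HFD (adjusted p = 0.0536). It was called for 40% HFD with every library left out in turn, but not in the limma fit with skeletal muscle markers as the covariate (adjusted p = 0.144).

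*Cox6c* ranged from 113 to 181 normalized CPM in 60% HFD mice (median 134) and from 128 to 221 in ND mice (median 164), at -0.26 ± 0.09 (adjusted p = 0.0352). It overlaps *Vps13b* on the opposite strand. *Ndufa11* ranged from 29.8 to 56.6 (median 37.6) against 18.5 to 46.7 (median 29.3), at 0.29 ± 0.10 (adjusted p = 0.0486), and overlaps *Vmac*. Both pairs of ranges overlapped. With each library left out in turn, *Cox6c* was called in 29 of 36 fits and *Ndufa11* in 15. *Cox6c* was not called with skeletal muscle or smooth muscle markers as the covariate. *Ndufa11* was not called with hepatocyte, epididymis, adipocyte or smooth muscle markers as the covariate.

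In 40% HFD mice *Sdhc* ranged from 68.0 to 157 normalized CPM (median 84.0) against 53.2 to 96.1 in ND mice (median 64.0), at 0.36 ± 0.11 (adjusted p = 0.0373). *Ndufb6* was at 0.31 ± 0.09 (adjusted p = 0.0362) and *Ndufa9*, a subunit at the junction of the arms of complex I, at 0.28 ± 0.09 (adjusted p = 0.0419). *Ndufb6* overlaps *Smim27* on the opposite strand. With each library left out in turn, *Sdhc* was called in 23 of 36 fits, *Ndufb6* in 24 and *Ndufa9* in 21. These genes were not called with hepatocyte, skeletal muscle, smooth muscle or epididymis markers as the covariate. The members farthest from 0 that were not called were *Atp5k* at -0.41 ± 0.16, *Cox6b2* at -0.29 ± 0.22, *Uqcrq* at 0.36 ± 0.16 and *Atp5e* at 0.33 ± 0.13 for 40% HFD, and *Atp5k* at -0.43 ± 0.16, *Ndufa5* at -0.26 ± 0.12, *Cox5a* at 0.34 ± 0.15, *Ndufb3* at 0.34 ± 0.12 and *Uqcrq* at 0.31 ± 0.16 for 60% HFD.

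The hepatocyte markers were higher with both diets, with a median of 2.99 and 10 of 12 called for 60% HFD and 3.87 and 10 of 12 for 40% HFD. For 40% HFD the skeletal muscle markers had a median of -1.07, with 9 of 9 tested below 0 and 6 called lower. The smooth muscle markers were at -1.35, with 6 of 6 below 0 and none called. For 60% HFD these medians were -0.66, with 8 of 9 below 0 and 1 called lower, and -1.09, with 5 of 6 below 0. With skeletal muscle markers as the covariate no member was called for 40% HFD. With hepatocyte and smooth muscle markers as covariates the median of the members for 40% HFD was -0.18. Quantile normalization gave 18 members lower and none higher for 60% HFD and 8 lower and none higher for 40% HFD, in place of 1 lower with 1 higher and 1 lower with 3 higher. Shares of all genes called after quantile normalization are not given here, so these counts do not set the members apart.

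Between the diets, 60% against 40% HFD, the median was -0.03 and limma called no member, beside 0.745% of all tested genes. At unadjusted p below 0.05, 2 members were higher and 4 lower (13.2% of all genes in either direction), and edgeR and DESeq2 called 0 each. The farthest from 0 were *Ndufa4l2* (0.28 ± 0.11), *Ndufa11* (0.27 ± 0.10) and *Atp5g1* (0.20 ± 0.23), and on the other side *Atp5e* (-0.34 ± 0.13), *Ndufa2* (-0.25 ± 0.09) and *Ndufb9* (-0.20 ± 0.10).

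Within single settings few members were called for 60% HFD against ND in CCL19-KI mice, 2 of 77 (2.6%) without and 3 of 77 (3.9%) with ligature, both below the share of all genes. Without ligature *Ndufa2* was lower (-0.59 ± 0.17, adjusted p = 0.0343) and *Ndufa11* higher (0.65 ± 0.21, adjusted p = 0.0458), where 10.2% of all genes were called. With ligature *Atp5b* (0.66 ± 0.22, adjusted p = 0.0492) and *Uqcrc1* (0.79 ± 0.26, adjusted p = 0.0485) were higher and *Cox6c* lower (-0.56 ± 0.17, adjusted p = 0.0344), where 12.8% of all genes were called. The hepatocyte markers summed to 970 to 1714 normalized CPM in the unligatured 60% HFD libraries against 1146 to 32608 in ND, and the smooth muscle markers to 727 to 1511 against 99.9 to 569. With ligature the smooth muscle markers summed to 188 to 352 against 144 to 5433. With hepatocyte, smooth muscle or skeletal muscle markers as the covariate no member was called without ligature, and with smooth muscle or skeletal muscle markers none was called with ligature. *Uqcrc1*, a core protein of complex III, was 178, 217 and 193 normalized CPM in the 60% HFD libraries and 135, 101 and 105 in the ND libraries, without overlap. The other 6 comparisons of a high-fat diet with ND within a genotype and ligature state called no member by limma. Of all genes, 3.41% and 2.57% were called for 60% HFD in WT mice without and with ligature, 6.03% and 0.207% for 40% HFD in the same mice, and 0% and 4.92% for 40% HFD in CCL19-KI mice. At unadjusted p below 0.05, 6, 6, 7, 10, 3 and 9 members stood in these comparisons in that order, beside 16.8%, 18.6%, 22.7%, 11.7%, 8.32% and 23.0% of all genes. DESeq2 called 1, 1, 0, 2, 0 and 2 members in them, and edgeR 1 in the last and none in the others.

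The ligature was compared with none over the 6 settings of diet and genotype, 18 libraries against 18, to ask whether periodontitis moved these genes in a distant fat depot. The members lay slightly below 0 at a median of -0.09, with 65 of 77 below 0 (84.4%), while 55.6% of all tested genes were. No member was called by limma, edgeR or DESeq2, beside 0.325% of all tested genes in the limma fit, and at unadjusted p below 0.05 10 members were lower and 1 was higher, beside 16.2% of all genes in either direction. The lowest were *Atp5g1* at -0.47 ± 0.19, *Atp5g2* at -0.32 ± 0.11 and *Cox5a* at -0.29 ± 0.12, *Atp5g3* was at -0.27 ± 0.12, and *Ndufc2* was the highest at 0.14 ± 0.06.

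Within settings, *Ndufa11* was lower with ligature in ND WT mice (-0.90 ± 0.21, adjusted p = 0.0138), at 18.5, 24.0 and 29.1 normalized CPM against 46.7, 41.2 and 46.0, where 6.73% of all genes were called. The hepatocyte markers summed to 4446 to 14580 normalized CPM with ligature against 134 to 1541 without, the epididymis markers reached 4.18 against 6743 and the smooth muscle markers 141 against 2275. With skeletal muscle markers as the covariate no member was called there, and with epididymis markers 12 were lower. Shares of all genes called in these 2 fits are not given here. In 60% HFD CCL19-KI mice *Ndufs1* was higher with ligature (0.82 ± 0.23, adjusted p = 0.0352), at 102, 104 and 109 against 51.8, 54.8 and 72.8, without overlap, where 5.66% of all genes were called. *Cox6b2* was lower there (-1.42 ± 0.43, adjusted p = 0.0493), at 0.539, 1.5 and 0.820 against 15.7, 1.44 and 2.31, so that the groups overlapped and 1 library set the mean. *Ndufs1* and *Cox6b2* belong to 1 comparison, which used the unligatured CCL19-KI libraries of the 60% HFD described above. The hepatocyte markers summed to 3013 to 22854 normalized CPM with ligature against 970 to 1714 without, the smooth muscle markers to 188 to 352 against 727 to 1511 and the epididymis markers to 0.596 to 3.04 against 364 to 12723, and with any of these lists as the covariate no member was called. The remaining 4 settings held no called member in the limma fit, beside 1.37% of all genes in ND CCL19-KI mice and 0% in both genotypes on 40% HFD and in WT on 60% HFD. At unadjusted p below 0.05 there were 9 members in ND CCL19-KI mice (18.1% of all genes), 3 and 0 in 40% HFD WT and CCL19-KI mice (15.0% and 1.69%) and 1 in 60% HFD WT mice (1.19%). DESeq2 called 1 in ND CCL19-KI mice and 0 in the others, and edgeR called 0 in all 4.

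The gene forms known from testis marked 1 library. *Cox6b2*, *Cox7b2* and *Cox8c* replace *Cox6b1*, *Cox7b* and *Cox8a* in the complex IV of male germ cells. In the library labelled 60% HFD CCL19-KI without ligature, replicate 1, they were 15.7, 11.4 and 8.47 normalized CPM. In the other 35 libraries they reached at most 3.07, 0.650 and 0.316. The 5 germ cell markers had a mean log2 level of 6.40 in that library, against a median of 0.04 over all libraries, and their part in the values of these 3 genes was not tested.

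**Figure D5:**
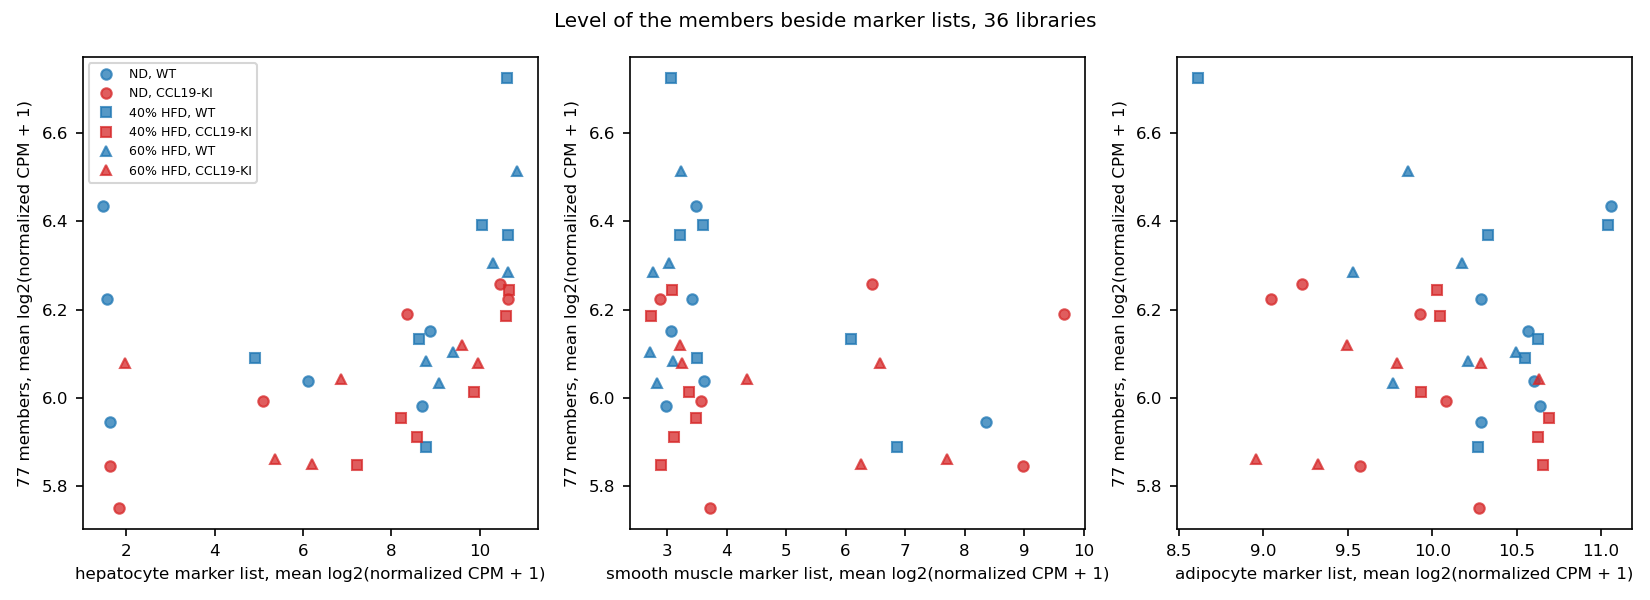
Mean log2(normalized CPM + 1) of the 77 tested members in each of the 36 libraries against the level of the hepatocyte, smooth muscle and adipocyte marker lists in the same library. Symbols give the diet and colours the genotype. The members' level spans 5.75 to 6.72 and the hepatocyte level 1.48 to 10.84, and both axes of a panel come from the same libraries and share their depth scaling.

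Other genes of the system were taken from lists. The 13 subunits encoded by mitochondrial DNA included 3 that fell with 60% HFD and 4 that fell with 40% HFD. Of all tested genes 18.6% and 9.21% were called in either direction, and 8.40% and 3.85% were called lower. The hepatocyte markers differed in the same comparisons, as given above. For 60% HFD 12 of 13 were below 0 (median -0.28), and the called genes were *mt-Atp8* (-0.93 ± 0.20, adjusted p = 0.00312), *mt-Nd6* (-0.68 ± 0.14, adjusted p = 0.00267) and *mt-Nd5* (-0.47 ± 0.13, adjusted p = 0.0163). For 40% HFD 9 of 13 were below 0 (median -0.25), 4 were called lower, *mt-Atp8* (-0.98 ± 0.20), *mt-Nd5* (-0.47 ± 0.13), *mt-Nd1* (-0.45 ± 0.11) and *mt-Nd3* (-0.44 ± 0.12), and *mt-Nd4l* was called higher (0.54 ± 0.16). In the comparison of CCL19-KI with WT, 12 of 13 were above 0 (median 0.08) and none was called, where the nuclear members were below 0.

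The lists that feed or build the chain lay with the nuclear members in that comparison. All 16 genes of the tricarboxylic acid cycle were below 0 (median -0.25), as were all 12 carriers and electron entry genes (-0.20), 44 of 45 assembly factors (-0.18) and 15 of 16 regulators of mitochondrial biogenesis (-0.10), and none of them was called. *Cs*, citrate synthase, was at -0.26 ± 0.10, *Cycs*, cytochrome c, at -0.23 ± 0.10, *Esrra* at -0.10 ± 0.11, *Nrf1* at -0.08 ± 0.06 and *Ppargc1a* at -0.06 ± 0.26.

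With 60% HFD, 3 of 16 genes of the tricarboxylic acid cycle were called, beside 18.6% of all tested genes, all 3 higher: *Idh3a* (0.49 ± 0.15), *Dlat* of the pyruvate dehydrogenase complex (0.44 ± 0.11) and *Sucla2* (0.41 ± 0.13). *Cycs* was higher (0.37 ± 0.12) and the adenine nucleotide carrier *Slc25a4* was lower (-0.43 ± 0.12). Of 45 assembly factors 4 were called higher, led by *Cox19* (0.47 ± 0.12), and 2 lower. *Pparg*, the regulator of fat cell genes, was lower (-0.46 ± 0.16), whereas *Cs* (0.14 ± 0.12), *Ppargc1a* (-0.36 ± 0.32), *Esrra* (0.05 ± 0.13) and *Nrf1* (-0.15 ± 0.08) were not called. With 40% HFD *Ppara* (1.77 ± 0.53), *Cox19* (0.45 ± 0.12) and *Sdhaf4*, an assembly factor of complex II (0.37 ± 0.11), were higher and *Slc25a4* (-0.42 ± 0.12) was lower. These were 1 of 16 regulators, 2 of 45 assembly factors and 1 of 12 carriers and electron entry genes, beside 9.21% of all tested genes. The hepatocyte markers were higher with both diets, as given above, and their part in the values of this paragraph was not tested.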

How the data were processed

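RNA-seq of eWAT was analysed in 36 libraries, 12 groups of 3. Per the study's methods and the labels, reads were trimmed with Trimmomatic 0.38 and aligned with Bowtie2 within RSEM 1.3.0 to mouse transcripts. The methods name mm10 and the submitters' processing notes list GRCm39, and coordinates printed here are those of GENCODE M21 and RefSeq on GRCm38. Ribosomal RNA was depleted and a directional library kit was used, but the counting strand is not given in the sources used here. The deposited values are a signal: gene read counts that the authors scaled with edgeR for depth (normalized CPM). All values (100%) were whole multiples of the worth of 1 read within a tolerance of 0.01, so the reads were recovered, at 11962228 to 21581595 per library. 1 read corresponds to 0.0472 to 0.0834 normalized CPM, so members at a few normalized CPM rest on few reads. Samples were grouped by the labels. The series' design text mentions a ligature in general terms, and the labels of each sample were followed.

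Differences were fitted with limma 3.58.1 (R 4.3.3, intensity trend) on log2(normalized CPM + 1), since the methods of the study give no model for averages over groups. Genes that reached 1 normalized CPM in 3 or more libraries entered, and p-values were adjusted over all 17852 of them. Alternatives were another pseudocount, filter, scaling or test (edgeR 4.0.16 and DESeq2 1.42.0 on the recovered reads), the replicate number as a block, sample weights, marker covariates, fits by ligature state, the thresholds the study set on unadjusted p (0.05) and ratio (1.5 up, 0.67 down) and each library left out. On the recovered reads edgeR called 85 genes for CCL19-KI against WT, 3218 for 60% HFD, 1905 for 40% HFD and 95 for the ligature, averaged. DESeq2 called 453, 4238, 2650 and 789 in the same order. The code was tested on simulated data. Each library is a sample of its own by the labels, and p-values measure the spread between these samples. No pair of libraries of a group agreed within sampling noise.

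The members and the lists were chosen with earlier results of these data known. Genes were named by a rule: in each averaged comparison the 3 highest, the 3 lowest and the called members, catalytic and core subunits with *Cox5a* and *Cox5b*, paralogue pairs, and members called within a setting where at most 5 were. *Sdhc* and *Sdhd* for unligatured 60% HFD mice, and *Atp5e* beside its interaction, were named after their values were seen. The values of 1 gene that the rule names are not reported here. Reads were shared with other genes over a median of 2.12% of the 31-base words of a member, and 22 members shared none. Of the members, 24 overlap another gene of the table, 23 of them on the opposite strand. No promoter entry was found for genes that include *Ndufa2*, *Ndufa4l2*, *Ndufb9*, *Ndufs1*, *Sdhc*, *Uqcrb*, *Uqcrc2*, *Uqcrq*, *Cox6a2*, *Cox6c*, *Cox8c*, *Atp5a1* and *Atp5mpl*.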

Additional observations from a re-analysis of the deposited data

How the results depend on the processing

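Depth, 3 libraries per group and uneven levels of other tissues' markers limit these results. In the 5 averaged comparisons the median of the 77 members stayed within the replicate spread in 94 of 95 values under the other settings, the exception being -0.18 for 40% HFD with hepatocyte and smooth muscle markers as covariates, and in all 180 values with a library left out. That spread, the pooled standard deviation within groups given above, was wider than each of the 5 main medians. A median that fell to 0 would still have stayed within it, so these tallies do not measure how steady a difference was. The averaged genotype median was below 0 in all settings tried, from -0.25 to -0.10. Within unligatured 60% HFD mice the genotype median moved further, from -0.49 with adipocyte markers to 0.14 with hepatocyte and smooth muscle markers as covariates. Numbers of called members were less stable, with 447 of 614 values within 1.5 times the number reported, and 901 of 1080 with a library left out. The number of all genes called moved too, for genotype (averaged) from 82 by limma to 453 by DESeq2. It is not printed for each setting, so a changed number of members does not set them apart from other genes. Replicate numbers did not pair the samples: same-numbered libraries deviated with a mean correlation of -0.00825 (-0.663 to 0.710), beside 0.00436 for other pairs. With the replicate number as a block, 1 member was called in place of 2 for 60% HFD in unligatured CCL19-KI mice, and no other number moved by over 1.5 times. Numbers of called members that moved by more than that are given by setting. With a pseudocount of 0.1 the number was 2 for ligature in ND WT, 1 for 40% HFD in CCL19-KI ligatured. With a pseudocount of 5 the number was 1 for 60% HFD (averaged), ligature in 60% HFD CCL19-KI. With no filter on low values the number was 1 for 60% HFD (averaged), ligature in 60% HFD CCL19-KI, 60% HFD in CCL19-KI unligatured, 60% HFD in CCL19-KI ligatured. With a filter at a mean of 5 the number was 4 for 60% HFD (averaged), 1 for ligature in 60% HFD CCL19-KI. With quantile normalization the number was 18 for 60% HFD (averaged), 9 for 60% HFD in CCL19-KI ligatured, 60% HFD in CCL19-KI unligatured, 8 for 40% HFD (averaged), 5 for 40% HFD in CCL19-KI ligatured, 4 for ligature in 60% HFD CCL19-KI, 0 for genotype (averaged). With median-of-ratios size factors the number was 1 for 60% HFD in CCL19-KI ligatured, 40% HFD in CCL19-KI ligatured. With sample quality weights, whose estimation stopped before it converged, the number was 54 for genotype (averaged), 50 for ligature in ND CCL19-KI, 44 for 60% HFD in CCL19-KI ligatured, 42 for genotype in ND ligatured, 41 for 40% HFD in CCL19-KI ligatured, 31 for interaction of ligature by 60% HFD, 30 for 40% HFD in CCL19-KI unligatured, 27 for 60% HFD in CCL19-KI unligatured, 26 for genotype in ND unligatured, ligature in ND WT, 22 for 60% HFD (averaged), 18 for interaction of genotype by 60% HFD, 60% HFD in WT ligatured, 17 for interaction of ligature by 40% HFD, 15 for 40% HFD (averaged), 60% HFD in WT unligatured, 11 for ligature (averaged), 9 for 40% HFD in WT ligatured, 5 for interaction of genotype by 40% HFD, 3 for ligature in 40% HFD CCL19-KI, ligature in 60% HFD WT, 2 for interaction of genotype by ligature, 1 for genotype in 40% HFD ligatured. By edgeR the number was 7 for 60% HFD in CCL19-KI unligatured, 6 for 60% HFD (averaged), 4 for ligature in 60% HFD CCL19-KI, 2 for ligature in ND WT, interaction of genotype by 60% HFD, 1 for 60% HFD in CCL19-KI ligatured, 40% HFD in CCL19-KI ligatured. By DESeq2 the number was 11 for 60% HFD in CCL19-KI unligatured, 7 for 40% HFD (averaged), 6 for 60% HFD (averaged), genotype (averaged), 5 for ligature in 60% HFD CCL19-KI, 60% HFD in CCL19-KI ligatured, 4 for ligature in ND WT, interaction of genotype by 60% HFD, 2 for 40% HFD in WT ligatured, 40% HFD in CCL19-KI ligatured, 1 for ligature in ND CCL19-KI, 60% HFD in WT ligatured, 60% HFD in WT unligatured. With hepatocyte markers as a covariate the number was 10 for 60% HFD (averaged), 2 for ligature in ND WT, 1 for genotype in ND unligatured, 0 for genotype in 60% HFD unligatured, ligature in 60% HFD CCL19-KI, 60% HFD in CCL19-KI unligatured. With skeletal muscle markers as a covariate the number was 1 for 60% HFD (averaged), 0 for 40% HFD (averaged), genotype (averaged), genotype in ND unligatured, ligature in ND WT, 60% HFD in CCL19-KI unligatured, 60% HFD in CCL19-KI ligatured. With epididymis markers as a covariate the number was 12 for ligature in ND WT, 9 for genotype in ND unligatured, 4 for 60% HFD (averaged), 1 for 40% HFD (averaged), 60% HFD in WT ligatured, 60% HFD in CCL19-KI ligatured, 60% HFD in CCL19-KI unligatured, 40% HFD in WT ligatured, 40% HFD in CCL19-KI ligatured, 0 for ligature in 60% HFD CCL19-KI, genotype in 60% HFD unligatured. With adipocyte markers as a covariate the number was 33 for genotype in 60% HFD unligatured, 10 for 60% HFD in CCL19-KI unligatured, 9 for 60% HFD (averaged), 6 for 60% HFD in CCL19-KI ligatured, ligature in 60% HFD CCL19-KI, genotype (averaged), 2 for ligature in ND WT, 1 for 60% HFD against 40% HFD (averaged), 60% HFD in WT ligatured, 0 for genotype in ND unligatured. By the criteria of the study the number was 12 for 60% HFD in CCL19-KI unligatured, 9 for ligature in 60% HFD CCL19-KI, 60% HFD in CCL19-KI ligatured, 7 for ligature in ND CCL19-KI, 5 for genotype in ND unligatured, interaction of genotype by 60% HFD, 4 for 40% HFD in WT unligatured, interaction of ligature by 60% HFD, ligature in ND WT, 3 for 40% HFD in CCL19-KI ligatured, 60% HFD in WT ligatured, 40% HFD in WT ligatured, 60% HFD in WT unligatured, 2 for genotype in 40% HFD unligatured, interaction of genotype by 40% HFD, ligature in 40% HFD WT, genotype in 40% HFD ligatured, 1 for genotype in 60% HFD ligatured, 40% HFD in CCL19-KI unligatured, 0 for genotype (averaged), 60% HFD (averaged), 40% HFD (averaged). In separate fits by ligature state the number was 18 for 60% HFD in CCL19-KI ligatured, 6 for 40% HFD in CCL19-KI ligatured, 3 for 60% HFD in WT ligatured, 1 for genotype in 60% HFD unligatured, 40% HFD in WT ligatured, 0 for 60% HFD in CCL19-KI unligatured. The next settings were chosen after seeing the data. With smooth muscle markers as a covariate the number was 6 for genotype in ND unligatured, 3 for ligature in ND WT, 1 for 40% HFD (averaged), genotype (averaged), 40% HFD in WT ligatured, 0 for genotype in 60% HFD unligatured, ligature in 60% HFD CCL19-KI, 60% HFD in CCL19-KI unligatured, 60% HFD in CCL19-KI ligatured. With hepatocyte and smooth muscle markers as covariates the number was 23 for ligature in ND WT, 14 for 60% HFD (averaged), 4 for ligature (averaged), 1 for 40% HFD in WT ligatured, 0 for genotype (averaged), genotype in 60% HFD unligatured, ligature in 60% HFD CCL19-KI, 60% HFD in CCL19-KI unligatured, 60% HFD in CCL19-KI ligatured. Without libraries high in epididymis or germ cell markers the number was 12 for genotype (averaged), 9 for ligature in ND WT, 8 for genotype in ND unligatured, 7 for 60% HFD in CCL19-KI ligatured, 5 for 60% HFD (averaged), genotype in 60% HFD unligatured, 4 for 60% HFD in CCL19-KI unligatured, 3 for ligature (averaged), 2 for 40% HFD (averaged), 40% HFD in CCL19-KI ligatured, 1 for 60% HFD against 40% HFD (averaged), 60% HFD in WT ligatured, ligature in 60% HFD CCL19-KI, interaction of genotype by 60% HFD, interaction of ligature by 60% HFD. This setting leaves 1 library of unligatured 60% HFD CCL19-KI mice, replicate 3, whose *Ccl19* went against the label and which is assumed to vary like the other groups, so the numbers that use that group rest on it. Without libraries whose Ccl19 goes against the label the number was 19 for genotype (averaged), 8 for ligature in ND WT, genotype in ND unligatured, 7 for 60% HFD in CCL19-KI ligatured, 6 for ligature in 60% HFD CCL19-KI, 2 for 40% HFD (averaged), 40% HFD in CCL19-KI ligatured, 1 for 60% HFD in WT ligatured, interaction of ligature by 60% HFD. With each library left out in turn the numbers were 0 to 6 for 60% HFD (averaged), 1 to 11 for genotype (averaged), 0 to 6 for ligature in ND WT, 0 to 6 for 60% HFD in CCL19-KI ligatured, 1 to 13 for 40% HFD (averaged), 0 to 9 for genotype in ND unligatured, 0 to 1 for 60% HFD in WT ligatured, 0 to 2 for 40% HFD in CCL19-KI ligatured, 0 to 6 for ligature in 60% HFD CCL19-KI, 0 to 19 for 60% HFD in CCL19-KI unligatured, 0 to 7 for ligature in ND CCL19-KI, 0 to 6 for interaction of genotype by 60% HFD, 0 to 1 for genotype in ND ligatured, 0 to 7 for 40% HFD in WT unligatured, 0 to 1 for 60% HFD in WT unligatured, 1 to 25 for genotype in 60% HFD unligatured. In unligatured 60% HFD mice the lowest came without WT replicate 3, and for the averaged genotype comparison the highest, 11, came without 40% HFD WT replicate 2 of the unligatured mice. The cause of each change was not tested.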
